A study of Oryctolagus cuniculus with 9 samples.

Results

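The genes described here encode the proteins of the cytosolic ribosome, measured in the rabbit diaphragm. A table row was taken as a member if its gene name was RPL or RPS followed directly by a digit, or RPLP0, RPLP1, RPLP2 or RPSA, and if its mean FPKM over the 9 libraries was at least 0.5, and the kinases named RPS6K were left out. FPKM is the number of fragments per kilobase of transcript scaled to the size of the library. Of the 29076 rows, 74 matched by name and 72 passed the minimum, 45 named for the large subunit and 27 for the small subunit, among 12981 genes tested. The 2 rows that did not pass, RPL10L and an additional RPL39 row, were listed at 0.0001 FPKM in every library, the value that stands in place of 0. The 72 rows carried 71 gene symbols, because RPL18 had 2 rows, and 2 of the rows, RPL7L1 and RPS19BP1, matched by their letters but encode no ribosomal subunit. No row named RPLP2 met the rule.

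The study examined how mechanical ventilation affects the diaphragm. Diaphragm RNA of New Zealand white rabbits was sequenced in 3 libraries per group. Per the study's methods, the animals were anaesthetized with pentobarbital and mildly sedated with dexmedetomidine. The CON group breathed spontaneously. The MV group was ventilated for 48 h in an assisted, volume-controlled mode with a positive end-expiratory pressure (PEEP) of 0 cmH2O, and animals ventilated for 48 h were given a feeding tube. The third group, called the MV_PEEP group here, was ventilated with PEEP. Its labels state a PEEP of 8 but neither its unit nor how long ventilation lasted, and the study's methods do not describe it. Age and sex are not given in the sources used here, and neither is whether each library came from a separate animal, so p-values measure only how far libraries differ, which may be technical. Values listed for a group are in the order of its replicates 1, 2 and 3. The CON libraries serve in 2 of the 3 comparisons and the MV libraries in 2, so the comparisons are not independent of each other.

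The cytosolic ribosome translates nuclear mRNA into protein. Its large subunit holds the centre that joins amino acids, and its small subunit reads the mRNA. The proteins are made in nearly equal numbers of molecules, and in mammals their mRNAs share a terminal oligopyrimidine (TOP) start, through which the mTORC1 kinase controls their translation. In muscle, the amount of ribosomes sets the capacity for protein synthesis, and RPL3L is a form of RPL3 found mainly in striated muscle fibres.

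Each library held between 21646702 counts, in CON replicate 3, and 43697018 counts, in MV replicate 3. The tissue was checked against 11 skeletal muscle fibre markers that the table holds, of which none was at 0 in any library, and their summed level ranged from 62010 to 72330 FPKM in the CON group, from 31890 to 46220 FPKM in the MV group and from 23500 to 50360 FPKM in the MV_PEEP group. MV_PEEP replicate 3 stood apart with the lowest sum of fibre markers, 23500 FPKM, and the highest sum of 12 fibroblast markers, 4628 FPKM against 155.1 to 1734 FPKM in the other libraries. MV replicate 1 had the highest sum of 10 neutrophil markers, 1068 FPKM against 3.56 to 287.6 FPKM elsewhere. Of these 10 markers, 6 reached the minimum for testing, and 3 were at 0 in MV replicate 1. In whole tissue, fewer cells of a type and less RNA per cell cannot be told apart.

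Ribosomal protein transcripts were among the abundant mRNAs of the diaphragm, and 1 library of the MV group held far more of them than any other. The 72 rows took 5.63, 3.52 and 5.20% of all counts in the CON group. They took 5.58, 5.15 and 10.5% in the MV group, and 6.52, 4.74 and 6.02% in the MV_PEEP group. The groups overlapped, with MV replicate 3 the highest and CON replicate 2 the lowest of the 9 libraries. Of the 72 rows, 59 had their highest FPKM in MV replicate 3 and 52 their lowest in CON replicate 2, as 10.4% and 6.38% of all genes tested did. With FPKM scaled by the trimmed mean of M values (TMM), which sets most genes level between libraries, these counts were 64 and 48, against 20.6% and 8.37% of all genes. Leaving aside the second RPL18 row, the median row stood 1.91 times as high in MV replicate 3 as in the mean of MV replicates 1 and 2, and 0.674 times as high in CON replicate 2 as in the mean of CON replicates 1 and 3.

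**Figure D1:**
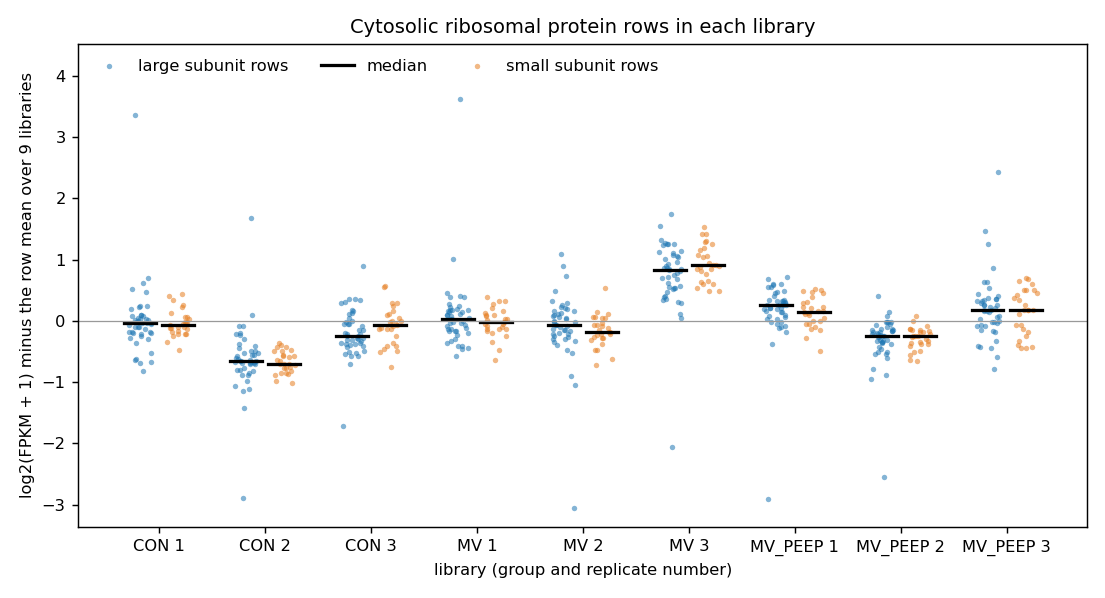
The level of each ribosomal protein row in each library, as log2(FPKM + 1) minus the mean of that row over the 9 libraries. Each point is a row, blue for the 45 of the large and orange for the 27 of the small subunit, and black bars are medians. The medians of both subunits are highest in MV replicate 3 (0.82 and 0.91) and lowest in CON replicate 2 (-0.65 and -0.70).

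The large and the small subunit were high and low in the same libraries. The summed FPKM of the large subunit rows was 50670, 29580 and 45390 in the CON group, 48210, 42190 and 86250 in the MV group, and 55560, 38450 and 48330 in the MV_PEEP group. That of the small subunit rows was 34150, 20920 and 34180 in the CON group, 34570, 30270 and 68630 in the MV group, and 38810, 29160 and 35860 in the MV_PEEP group, in the same order. For either subunit MV replicate 3 was the highest and CON replicate 2 the lowest. The ratio of large to small subunit FPKM was 1.41 ± 0.078 in the CON group, 1.35 ± 0.079 in the MV group and 1.37 ± 0.058 in the MV_PEEP group (mean ± SD, n = 3 each), so the groups differed by less than 1 SD. Among single libraries the ratio ran from 1.26 in MV replicate 3 to 1.48 in CON replicate 1. The order of the groups turned with 1 row. Without RPLP1, the most abundant member, the ratio was 1.16 ± 0.049, 1.21 ± 0.078 and 1.23 ± 0.047 in the CON, MV and MV_PEEP groups, and the CON group was then the lowest rather than the highest.

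The level differed widely between rows. The mean FPKM over the 9 libraries ran from 2.78 for the second RPL18 row to 5970 for RPLP1, with a median of 1088, and 38 rows lay above 1000. The median row of the large subunit stood at 866.5 FPKM and that of the small subunit at 1239 FPKM. RPLP1, a protein of the large subunit stalk that recruits translation factors, was the highest, at 7237 ± 1915 FPKM in the CON group, 5889 ± 2609 in the MV group and 4782 ± 1040 in the MV_PEEP group. The next of the large subunit were RPL37, RPL37A and RPL23A, with means of 2926, 2585 and 2512 FPKM over all libraries. The highest of the small subunit were RPS29, RPS15A, RPS7 and RPS14, with 3059, 2877, 2311 and 2281 FPKM. The 6 rows under 100 FPKM were RPL26L1, RPL32, RPL38, RPL7L1, RPS19BP1 and the second RPL18 row, which are paralogs, rows of proteins that are no subunit, or rows that held a small part of the reads of their protein (RPL32 and RPL38). The members lay on 18 chromosomes of OryCun 2.0, at most 6 of them on chromosome 19, and 20 were on unplaced scaffolds.

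Most rows followed 1 shared pattern over the libraries. For 47 of the 72, the levels over the 9 libraries had a Pearson's r of at least 0.8 with the median of the other rows. The libraries and their depth are shared by all rows, so this is a description. RPL27A, RPS20 and RPL10A were closest to the shared pattern (r = 0.98 each). RPL27A, a large subunit protein, read 1015, 628.8 and 969.6 FPKM in the CON group, 925.3, 912.4 and 1764 in the MV group, and 1106, 803.1 and 1225 in the MV_PEEP group. Apart from the second RPL18 row, the highest library exceeded the lowest by 3.06 times in the median row and by 1.97 times at the least. It did so by at least 5 times in 7 rows, RPL22L1, RPL23A, RPL32, RPL34, RPL35A, RPS12 and RPSA. RPL34 departed furthest from the others, with r = -0.25.

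The first comparison, MV against CON, bears on ventilation itself. In edgeR's fit over all genes, 67 of the 72 ribosomal protein rows had a log2 fold change above 0, 42 of 45 in the large and 25 of 27 in the small subunit, but none passed an adjusted p of 0.05. The median log2 fold change was 0.53 for the large and 0.54 for the small subunit, against 0.02 over all genes tested. Without MV replicate 3 the medians were -0.04 and -0.08, and 30 of 72 rows lay above 0. Without CON replicate 2 they were 0.26 and 0.21. The median standard error of a row was 0.53 on the log2 scale, as large as the median change. Over all 12981 genes edgeR called 0.0% at an adjusted p of 0.05 (904 genes at an unadjusted p of 0.05), DESeq2 called 154 genes and limma on log2(FPKM + 1) called 2, none of them a ribosomal protein row in either.

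At an unadjusted p of 0.05, 3 rows were higher in the MV group and 0 lower, where 3.77% of all genes were higher and 3.19% lower, so the share of the members, 3 of 72, was near the background. DESeq2 also gave 3 rows at that p, beside 1165 of all 12981 genes, and limma on log2(FPKM + 1) gave 6, beside 967. The number was 0 without MV replicate 3 and 0 without CON replicate 2, 1 without CON replicate 1, 1 without CON replicate 3, 1 without MV replicate 2 and 5 without MV replicate 1. In 15 rows the lowest MV library exceeded the highest CON library in FPKM, and in 0 rows the reverse held, where 10.3% and 4.91% of all genes did so. With FPKM scaled by TMM, 4 rows kept this separation, RPL14, RPL26L1, RPL7L1 and RPS27L, against 6.76% of all genes, again near the background. Among the 15 rows were RPL3L, RPL4, RPL6, RPL7L1, RPL9, RPL11, RPL14, RPL26L1, RPL32 and RPL35A of the large and RPS3A, RPS10, RPS15A and RPS27L of the small subunit by name. With 3 libraries against 3, the smallest p of a 2-sided exact permutation test is 0.1.

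The members with the smallest p were mostly paralogs or minor rows. RPL26L1, a paralog of RPL26 (chr3:54013959-54023967), read 24.5, 29.6 and 26.6 FPKM in the CON group and 36.9, 73.2 and 48.1 in the MV group. The groups did not overlap, and the highest library was MV replicate 2. Its log2 fold change was 0.88 ± 0.35 (SE), with an edgeR adjusted p of 0.641. RPL32 of the large subunit (chr9:11158399-11162821) read 54.4, 28.7 and 52.3 FPKM in the CON group and 72.5, 138.4 and 154.6 in the MV group, without overlap, with a log2 fold change of 1.34 ± 0.54 (edgeR adjusted p = 0.660). This row, however, held 2.61% of the counts described as RPL32, and the sum over all such rows was 3637, 2065 and 2932 FPKM in the CON group against 3562, 2444 and 7208 in the MV group, where the groups overlapped and the log2 fold change was 0.57 (edgeR adjusted p = 0.903). RPL35A of the large subunit (chr14:93168924-93172803) read 633.3, 375.3 and 972.4 FPKM in the CON group and 1025, 1679 and 2936 in the MV group. The lowest MV library lay just above the highest CON library, and the log2 fold change was 1.46 ± 0.65 (edgeR adjusted p = 0.712) and 0.76 without MV replicate 3.

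The next rows in order of p were RPS27L, RPL22L1 and RPL14, and none of them passed an unadjusted p of 0.05. RPS27L, a paralog of RPS27 that p53 induces in human cells, read 178.1, 128.5 and 190.8 FPKM in the CON group and 284.6, 244.2 and 475.8 in the MV group, without overlap, with a log2 fold change of 0.95 ± 0.51 that was 0.41 without MV replicate 3. RPL22L1, a paralog of RPL22, was high in MV replicate 3 alone, at 313.0 FPKM against 57.4 to 122.8 in the other 8 libraries. Its log2 fold change was 1.20 ± 0.65, and it was -0.08 without MV replicate 3. RPL14 of the large subunit read 830.7, 641.4 and 772.9 FPKM in the CON group and 1194, 1169 and 1653 in the MV group, without overlap, with a log2 fold change of 0.76 ± 0.42 that was 0.40 without MV replicate 3. These 3 rows had edgeR adjusted p-values of 0.773 to 0.784.

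The 5 rows below 0 were RPLP1, RPS21, RPL34, RPL31 and RPS28, with log2 fold changes of -0.38, -0.17, -0.52, -0.04 and -0.01 and edgeR adjusted p-values of at least 0.943. RPLP1 was the clearest departure among abundant rows. It read 9178, 5348 and 7185 FPKM in the CON group and 6455, 3045 and 8169 in the MV group, so its highest library was CON replicate 1 rather than MV replicate 3, and the groups overlapped. Its log2 fold change was between -0.90 without MV replicate 3 and -0.04 without MV replicate 2, and it was -0.09 without CON replicate 1 and -0.67 without CON replicate 2. Its partner in the stalk RPLP0, in contrast, followed MV replicate 3, with 1114, 798.6 and 914.4 FPKM in the CON group and 802.5, 1213 and 2895 in the MV group. RPS6, the small subunit protein that S6 kinase phosphorylates, read 198.3, 142.9 and 118.9 FPKM in the CON group and 194.8, 182.4 and 387.7 in the MV group. RPSA, a small subunit protein that is also known as the laminin receptor, read 340.5, 201.0 and 445.0 FPKM in the CON group and 359.7, 319.9 and 1061 in the MV group. For RPLP0, RPS6 and RPSA alike, MV replicate 3 was highest and the groups overlapped.

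**Figure D2:**
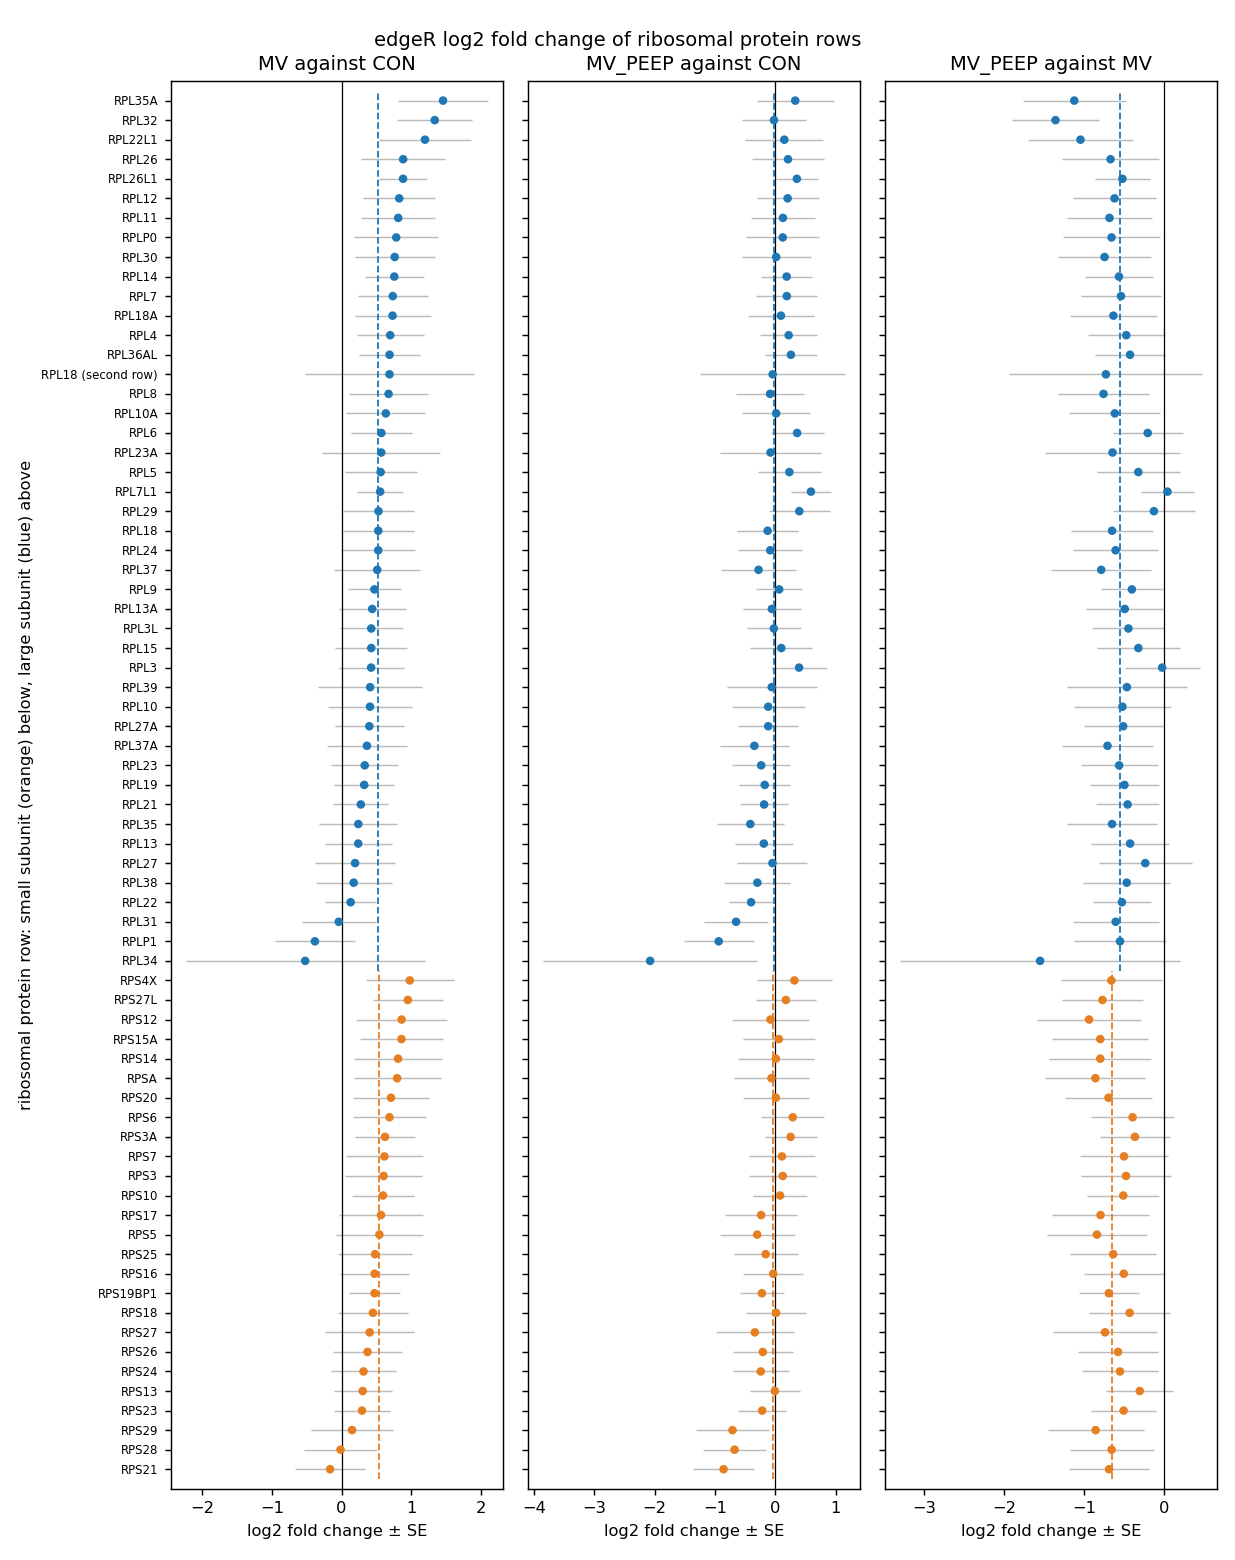
The edgeR log2 fold change of the ribosomal protein rows shown, with its standard error (grey bars) in the 3 comparisons, ordered within each subunit by the first. Dashed lines are the medians over all rows of the large (blue) and the small subunit (orange). They lie at 0.53 and 0.54 for MV against CON, at -0.02 and -0.04 for MV_PEEP against CON, and at -0.55 and -0.66 for MV_PEEP against MV.

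The next comparison, MV_PEEP against CON, bears on ventilation with PEEP and shares its CON libraries with the first. Of the 72 rows 32 were above 0 and 40 below, and the median log2 fold change was -0.02 for the large and -0.04 for the small subunit, against 0.06 over all genes tested. With counts scaled to the library totals alone, the medians of the rows were 0.36 and 0.35, and the median over all genes was 0.42, so the rows stood near the median gene under either scaling. The 2 medians also depended on single libraries. They were -0.25 and -0.27 without CON replicate 2, with 14 of 72 rows above 0, and 11 of 72 were above 0 without MV_PEEP replicate 1. Without CON replicate 1, 55 of 72 rows lay above 0.

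No row passed an unadjusted p of 0.05 in edgeR in this comparison, where 3.23% of all genes were higher and 3.02% lower, and DESeq2 gave 0 rows and limma on log2(FPKM + 1) gave 1, RPL6. In edgeR it was 1 without CON replicate 2 (RPS21) and 1 without MV_PEEP replicate 3 (RPL34). Over all genes edgeR called 0.0% at an adjusted p of 0.05, DESeq2 called 98 and limma 2, none of them a ribosomal protein row. In 10 rows the lowest MV_PEEP library exceeded the highest CON library and in 0 rows the reverse held, beside 14.2% and 2.58% of all genes, so the share of members, 10 of 72, was near the background. With FPKM scaled by TMM it was 0 of 72, against 6.21% of all genes. The 10 rows were RPL4, RPL6, RPL7, RPL7L1, RPL11, RPL12, RPL14, RPL26, RPL26L1 and RPS3A, of which 7 also separated the MV group from the CON group.

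The smallest p belonged to RPL7L1, a nucleolar protein of ribosome assembly that is no subunit. It read 7.29, 11.4 and 10.3 FPKM in the CON group, 14.5, 15.4 and 14.8 in the MV group, and 12.4, 12.5 and 33.6 in the MV_PEEP group. All 6 ventilated libraries lay above the 3 CON libraries, and MV_PEEP replicate 3 was the highest. Its log2 fold change was 0.59 ± 0.33 for MV_PEEP against CON and 0.56 ± 0.33 for MV against CON (edgeR adjusted p = 0.890 in the former). The former was 0.26 without MV_PEEP replicate 3. Among the rows below 0, RPS21 of the small subunit read 1090, 609.6 and 1206 FPKM in the CON group and 674.8, 528.3 and 929.9 in the MV_PEEP group, with overlap. Its log2 fold change was -0.86 ± 0.51 (edgeR adjusted p = 0.906). RPLP1 read 5930, 3904 and 4513 FPKM in the MV_PEEP group, against 5348 to 9178 in the CON group, with a log2 fold change of -0.94 ± 0.58 (edgeR adjusted p = 0.911) that was -0.61 without CON replicate 1. RPS28, RPS29 and RPL31 had log2 fold changes of -0.67, -0.71 and -0.65, each with an edgeR adjusted p of 0.956.

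The last comparison, MV_PEEP against MV, sets ventilation with PEEP beside ventilation without it, and it shares its MV libraries with the first. The duration and handling of the MV_PEEP group are not given, so PEEP cannot be told apart from them. Here 71 of 72 rows were below 0, RPL7L1 being the exception, and the median log2 fold change was -0.55 for the large and -0.66 for the small subunit, against 0.00 over all genes. Without MV replicate 3 the medians were -0.01 and 0.035, with 38 of 72 rows above 0. Scaled to the library totals alone they were -0.29 and -0.35, where the median of all genes was 0.25, and by limma on log2(FPKM + 1) they were -0.22 and -0.25. At an unadjusted p of 0.05, 0 rows were higher and 1 lower, where 2.26% of all genes were higher and 1.26% lower. Each of edgeR, DESeq2 and limma gave that row, RPL32, with a log2 fold change of -1.36 ± 0.54 in edgeR (adjusted p = 0.985), and with all rows described as RPL32 summed it was -0.95 (edgeR adjusted p = 0.984). The number of rows at that p was 0 without MV replicate 2, 0 without MV replicate 3, 0 without MV_PEEP replicate 2, 4 without MV replicate 1 and 3 without MV_PEEP replicate 1. Without MV_PEEP replicate 3 it was 1, RPL34 in place of RPL32. edgeR called 0.0% of all genes at an adjusted p of 0.05, DESeq2 called 15 and limma 1, none a member. No row kept the groups apart in either direction, beside 4.86% of all genes higher and 1.53% lower. A fall in this comparison was not particular to these rows. Of 70 mitochondrial ribosomal proteins 67 were below 0 and 3 above (median -0.54). Of 13 elongation and termination genes 11 were below 0 and 2 above (median -0.58). Initiation genes had 32 of 41 below 0 (median -0.24), beside 6486 of 12981 genes tested.

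Apart from the second RPL18 row, whose level was low and stood in place of 0 in CON replicate 3, RPL34 and RPL23A had the widest range over the libraries. RPL34, a large subunit protein (chr15:40925825-40928104), read 779.3, 243.8 and 52.4 FPKM in the CON group, 935.8, 8.13 and 17.3 in the MV group, and 9.14, 12 and 409.4 in the MV_PEEP group. The highest library exceeded the lowest by 115.1 times, with high and low libraries in every group. The table held 13 further rows described as RPL34 without that name, 6 of them tested. Summed with them, RPL34 read 1110, 712.1 and 1402 FPKM in the CON group, 1248, 1151 and 3360 in the MV group, and 1743, 1283 and 1255 in the MV_PEEP group. The highest library then exceeded the lowest by 4.72 times, and the highest and lowest libraries were MV replicate 3 and CON replicate 2, as for most other rows.

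RPL23A, a large subunit protein near the exit of the new chain (chr19:19442378-19445077), read 2935, 273.8 and 2601 FPKM in the CON group, 1733, 2443 and 5096 in the MV group, and 2856, 1493 and 3181 in the MV_PEEP group. CON replicate 2 lay far under the other 8 libraries, which did not go below 1493 FPKM. Summed with 47 further rows of the same description, 24 of them tested, CON replicate 2 read 3090 FPKM, the other libraries read 3997 to 7642, and the ratio of highest to lowest was 2.47 in place of 18.6. Reads of near-identical copies can be divided between rows, so the values of single rows with such copies are uncertain.

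**Figure D3:**
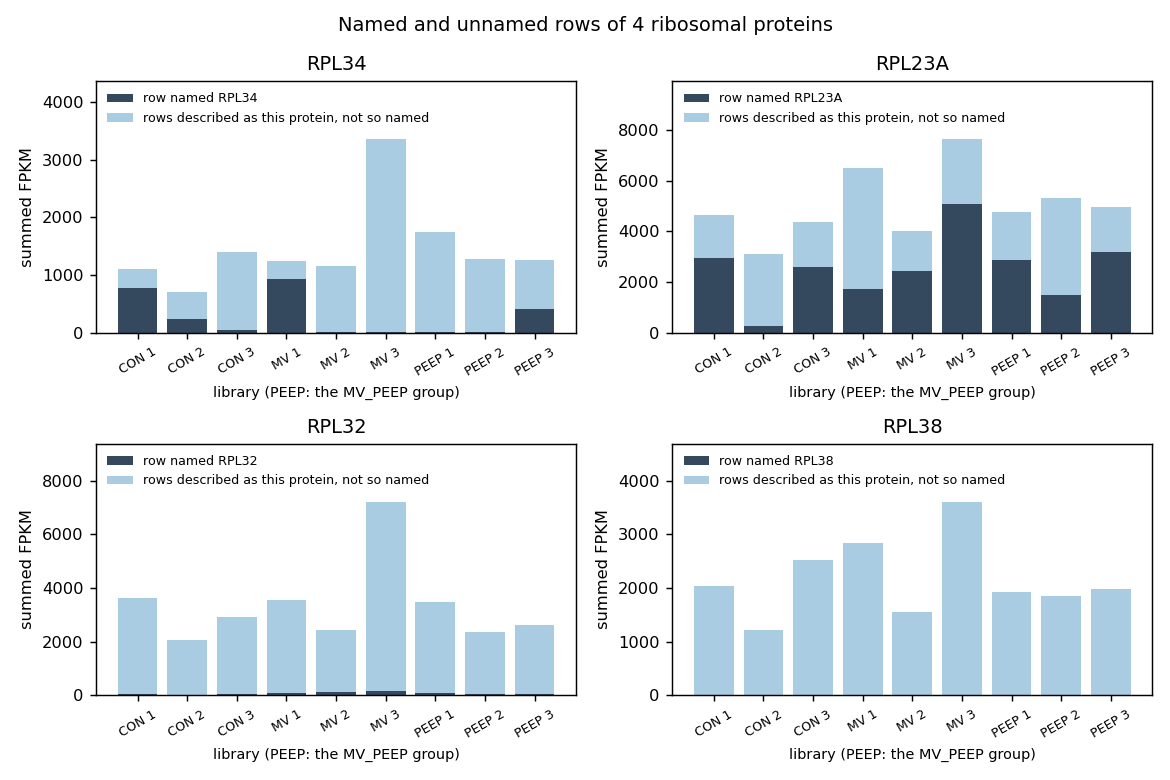
FPKM of the row that carries the gene name (dark) and of the rows described as the same protein without that name (light), stacked for each library, for RPL34, RPL23A, RPL32 and RPL38. The named row of RPL34 makes up most of the sum in CON replicate 1 and MV replicate 1 and little of it in MV replicate 3, and the named rows of RPL32 and RPL38 hold 2.61 and 0.544% of the counts.

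Such copies were common. A further 778 rows were described as cytosolic ribosomal proteins but not so named, 271 of them tested, and they took 1.55 to 4.35% of all counts, the most in MV replicate 3 and the least in CON replicate 2. Of 79 proteins of the mammalian ribosome, 64 had a named row that was tested, 39 of 47 in the large and 25 of 32 in the small subunit, 12 had tested rows without the name alone, and 3, RPL41, RPLP2 and RPS9, had neither. The named row held over 90% of the counts of 31 proteins and under 30% of those of 6, RPL21, RPL32, RPL34, RPL38, RPS6 and RPS26. For RPS6 this share was 22.2%, and the sum of its rows was 794.1, 653.7 and 762.2 FPKM in the CON group, 1055, 1279 and 1783 in the MV group, and 1338, 592.3 and 1411 in the MV_PEEP group. In unscaled FPKM the MV and CON groups did not overlap in this sum, while in the named row they did. Scaled by TMM the sums overlapped, as CON replicate 1 (factor 0.786) then exceeded MV replicate 1 (factor 1.10). The log2 fold change of the sum was 0.83 (edgeR adjusted p = 0.804), and 10.3% of all genes tested were higher in the MV group without overlap in FPKM.

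With rows summed by protein, the library pattern was the same. The sum was highest in MV replicate 3 for 70 of the 79 proteins and lowest in CON replicate 2 for 58. RPLP2, which had no tested row, is among the 58 only through values that stand in place of 0. In edgeR's fit with these sums, 70 of 76 proteins tested were above 0 for MV against CON, with medians of 0.50 for the large and 0.55 for the small subunit, and 1, RPL35A, passed an unadjusted p of 0.05. For MV_PEEP against CON the medians were -0.06 and -0.05, and for MV_PEEP against MV they were -0.59 and -0.67. The 271 rows without the name, taken alone, had a median log2 fold change of 0.12 for MV against CON, -0.41 for MV_PEEP against CON and -0.55 for MV_PEEP against MV.

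For 4 pairs of a ribosomal protein and its paralog both rows were tested as a ratio, and no ratio kept 2 groups apart. RPL3L read 413.0, 440.9 and 346.3 FPKM in the CON group, 497.1, 584.0 and 616.1 in the MV group, and 584.0, 519.5 and 309.1 in the MV_PEEP group. RPL3 (chr4:84189009-84193225) read 295.5, 297.5 and 401.2, then 400.2, 492.0 and 520.5, then 326.4, 332.3 and 1181 FPKM in the same order. MV_PEEP replicate 3 was thus the lowest library of RPL3L and the highest of RPL3. The ratio of RPL3L to RPL3 was 1.40, 1.48 and 0.863 in the CON group, 1.24, 1.19 and 1.18 in the MV group and 1.79, 1.56 and 0.262 in the MV_PEEP group. The difference in the log2 ratio was -0.01 for MV against CON, -0.43 for MV_PEEP against CON and -0.42 for MV_PEEP against MV, with an exact 2-sided permutation p of 1.0 in each. RPL3L and RPL3 had log2 fold changes of 0.43 and 0.42 for MV against CON, which were 0.20 and 0.19 without MV replicate 3, and that of RPL3 was 0.23 without CON replicate 2. In MV_PEEP replicate 3, where the ratio was 0.262, the 12 fibroblast markers summed to 4628 FPKM with none at 0, the 10 macrophage markers of the table to 179.5 FPKM against 12.4 to 34.3 elsewhere, and the fibre markers to their lowest value. The part of these in the ratio was not tested.

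**Figure D4:**
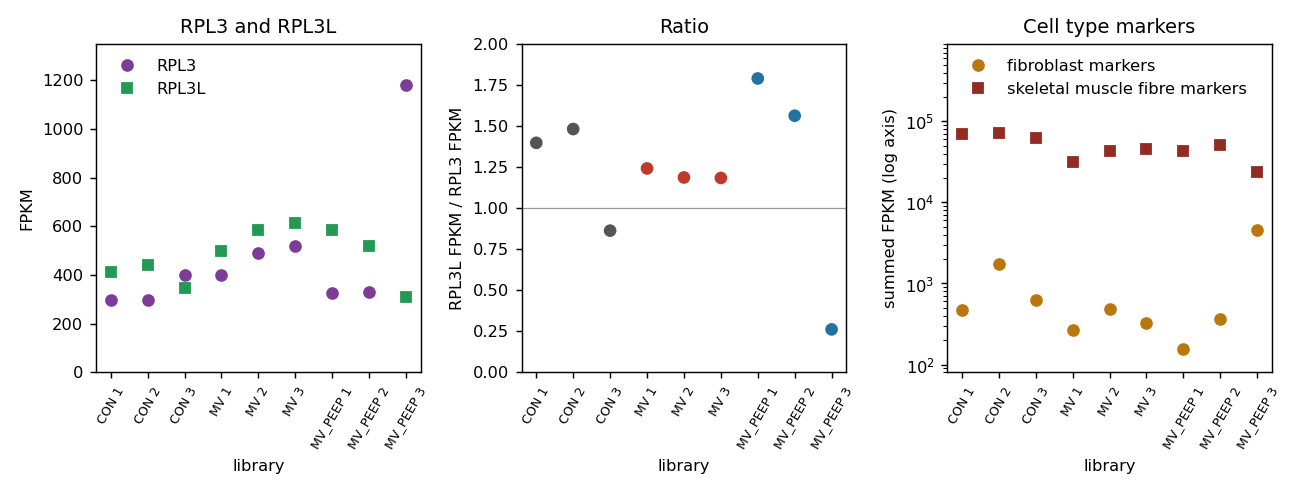
Left, FPKM of RPL3 (circles) and RPL3L (squares) in each library. Middle, their ratio, coloured by group. Right, summed FPKM of the fibroblast and the skeletal muscle fibre markers on a log axis. In MV_PEEP replicate 3 the ratio is lowest (0.262), the fibroblast sum is highest (4628) and the fibre sum is lowest (23500).

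RPS27L stood at 0.135, 0.202 and 0.176 of the level of RPS27 in the CON group, at 0.323, 0.325 and 0.191 in the MV group and at 0.252, 0.193 and 0.232 in the MV_PEEP group. MV replicates 1 and 2 lay above every other library in this ratio, and the groups overlapped. The log2 difference for MV against CON was 0.69, with an exact 2-sided permutation p of 0.2, and the p adjusted over the 3 comparisons was 0.3. RPL22L1 exceeded the row named RPL22 in MV replicate 3, with a ratio of 1.12, and in no other library, where it was 0.256 to 0.586. That named row held 57.3% of the counts described as RPL22. Summed over all such rows, RPL22 read 446.0 FPKM in MV replicate 3, above the 313.0 FPKM of RPL22L1. The ratio of RPL26L1 to RPL26 was between 0.0103, in MV replicate 3, and 0.0380, in MV replicate 2.

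Ribosomal protein transcripts are short. The transcript length implied by count and FPKM had a median of 675 bases over the members (245 to 2979) and of 2393 over all genes tested, and 50 of the 72 members lay within the shortest of 10 length classes of equal size made from the other genes tested. In that class the median log2 fold change was -0.04 for MV against CON, -0.30 for MV_PEEP against CON and -0.36 for MV_PEEP against MV. In MV replicate 3 the median centred level was 0.11 in the shortest class and -0.44 in the longest, and in CON replicate 2 it was -0.14 and 0.18. The members' own medians in these libraries, 0.85 and -0.66, were further from 0 than those of the shortest class. The part of length in the members' values was not tested.

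The other genes of translation were described for comparison, beside 6658 of 12981 genes above 0 for MV against CON and 3.77% higher and 3.19% lower at an unadjusted p of 0.05 over all genes. Of 13 elongation and termination genes tested, 12 had a log2 fold change above 0 for MV against CON (median 0.46), with 2 higher and 0 lower at an unadjusted p of 0.05. The termination factors GSPT1 and ETF1 were those 2. ETF1 read 14.3, 17.0 and 17.7 FPKM in the CON group and 25.6, 30.9 and 76.2 in the MV group, highest in MV replicate 3 as were the ribosomal proteins, with a log2 fold change of 1.45 ± 0.54 (edgeR adjusted p = 0.597). Of 41 initiation genes 36 were above 0 (median 0.40), with 1 higher and 0 lower, and of 19 other genes with TOP mRNAs, several of which are also on those lists, 17 were above 0 (median 0.40), with 1 higher and 0 lower. RACK1, a scaffold protein bound to the small subunit, read 993.3, 761.8 and 606.8 FPKM in the CON group and 693.9, 1083 and 2613 in the MV group. Of 70 mitochondrial ribosomal proteins, which serve the separate ribosome of mitochondria, 46 were above 0 (median 0.11), with 1 higher and 1 lower.

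The genes of rRNA synthesis and ribosome assembly were on balance above 0 as well. For MV against CON 73 of 78 were above 0 (median 0.47), with 18 higher and 0 lower at an unadjusted p of 0.05 (3.77 and 3.19% over all genes), and none passed an adjusted p of 0.05. In FPKM, 6 of the 78 were highest in MV replicate 3 and 43 in MV_PEEP replicate 3, beside 10.4% and 42.8% of all genes. In TMM-scaled FPKM these were 19 and 8, beside 20.6% and 21.8% of all genes, so the count for MV replicate 3 was near the background under either scaling, while the ribosomal protein rows were above it under both. NMD3, an export adaptor of the large subunit, read 3.93, 4.75 and 4.83 FPKM in the CON group and 12.8, 12.8 and 7.54 in the MV group, without overlap (log2 fold change 1.16 ± 0.28, edgeR adjusted p = 0.332). FTSJ3, an assembly factor of the nucleolus, read 12.4, 15.4 and 17.7 FPKM in the CON group and 47.6, 66.0 and 25.2 in the MV group, without overlap (log2 fold change 1.46 ± 0.38, edgeR adjusted p = 0.387). Both were lowest within the MV group in MV replicate 3, the library in which the ribosomal proteins were highest.

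In TMM-scaled values the median centred level in MV replicate 3 was 1.18 for the ribosomal protein rows, against -0.03 for all genes. It was 0.84 for elongation, 0.71 for other TOP mRNAs, 0.61 for mitochondrial ribosomal proteins, 0.60 for initiation and 0.06 for assembly. The mitochondrial ribosomal proteins stood nearly as high in CON replicate 1, at 0.58. In MV replicates 1 and 2 the ribosomal protein rows stood at -0.14 in each, and the assembly genes at 0.15 and 0.25. MYC, a transcription factor that drives ribosome synthesis, read 1.10, 3.61 and 4.18 FPKM in the CON group and 38.0, 11.4 and 4.03 in the MV group. In unscaled FPKM MV replicate 3 lay within the range of the CON group, and scaled by TMM it lay just above that range. DDIT4, an inhibitor of mTORC1, read 10.2, 23.7 and 16.2 FPKM in the CON group and 173.0, 97.9 and 12.5 in the MV group. Its level in MV replicate 3 was within the CON range in FPKM. DDIT4L of the same list went otherwise, with 188.4, 148.7 and 106.0 FPKM in the CON group and 428.7, 398.2 and 471.0 in the MV group. Its groups did not overlap, and MV replicate 3 was the highest of the MV group (log2 fold change 1.45 ± 0.505, edgeR adjusted p = 0.567). Of the 38 genes of mTORC1 and translation control, 28 were above 0, with 4 higher and 0 lower at an unadjusted p of 0.05, and of the 20 genes of ribosome quality control, 14 were above 0, with 1 higher and 1 lower, where 3.77% of all genes were higher and 3.19% lower.

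**Figure D5:**
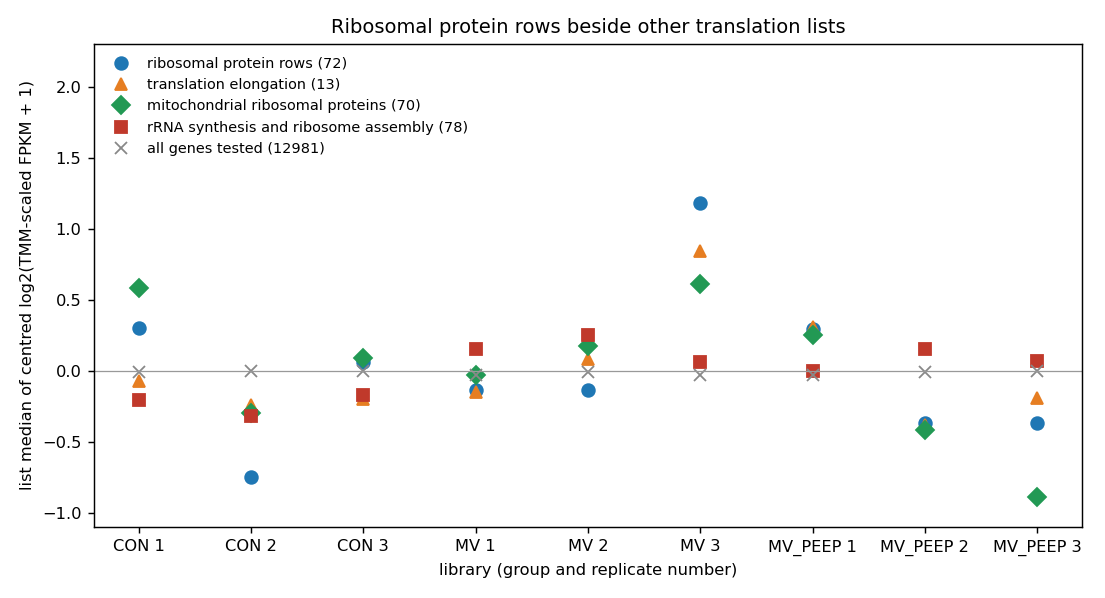
Median over each gene list of log2(TMM-scaled FPKM + 1) minus the mean of the gene over the 9 libraries, by library, with the number of genes in brackets. In MV replicate 3 the ribosomal protein rows stand at 1.18 and the assembly genes at 0.06. In CON replicate 2 the ribosomal protein rows are at -0.75, the lowest of the lists shown.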

How the data were processed

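Poly(A) RNA of the diaphragm was made into dUTP-marked libraries and read in pairs. Per the labels, reads were trimmed with cutadapt 1.9 and aligned with HISAT2 2.0.4 to OryCun 2.0, with StringTie 1.3.4d for expression. The deposited counts are whole numbers per gene, and the program that made them is not given in the sources used here. Multiples of 4 made up 54.3% of counts between 1 and 12. The FPKM values are those of the authors, with 0.0001 in place of 0. Names beginning with LOC were replaced in 764 rows through a RefSeq gene table of another assembly, used for names only.

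edgeR 4.0.16, run in R 4.3.3, tested every gene whose mean FPKM reached 0.5 (TMM scaling, 1 mean per group, glmQLFit in its legacy form, Benjamini-Hochberg adjustment). The standard error is the log2 fold change divided by the root of F. DESeq2 1.42.0, limma 3.58.1, other scalings and filters, a replicate block, counts divided by 4 and leaving out each library were alternatives. The main edgeR fit was tested on simulated counts for MV against CON, and the alternatives were not. The sums by protein, the rows without a name and the TMM-scaled overlap were chosen after the data were seen. The members and gene lists were chosen with earlier results of these data known. Genes named were those of the smallest p in each direction, the 4 highest of each subunit, the stalk proteins, RPSA, RPS6, paralog pairs and, of the other lists, those of the smallest p. Rows that departed from the shared pattern were chosen after their values were seen. Not every gene so chosen is reported here.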

Additional observations from a re-analysis of the deposited data

How the results depend on the processing

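The direction of the members' medians rested on single libraries. With each library left out in turn, the median log2 fold change of MV against CON ran from -0.04 to 0.77 for the large and from -0.08 to 0.80 for the small subunit, that of MV_PEEP against CON from -0.33 to 0.27 and from -0.31 to 0.16, and that of MV_PEEP against MV from -0.80 to -0.01 and from -0.90 to 0.035. RPL22L1 for MV against CON ran from -0.079, without MV replicate 3, to 1.59. Members at an unadjusted p of 0.05 numbered 0 to 5, 0 to 1 and 0 to 4 in the 3 comparisons. Over all 12981 genes the number at that p was 565 to 1150, 534 to 1016 and 269 to 1029. The number of all genes called at an adjusted p of 0.05 was 0 to 0, 0 to 1 and 0 to 1. Scaled to the library totals alone, 10, 2 and 1 members passed the unadjusted p, beside 978, 1247 and 517 of all 12981 genes. The median over all genes moved to 0.13, 0.42 and 0.25. DESeq2 called 154, 98 and 15 of all genes. limma on log2(FPKM + 1) called 2, 2 and 1, and on log2(FPKM + 0.1) 2 and 2 in the comparisons with the CON group. With these pseudocounts 6 and 7 members passed the unadjusted p for MV against CON and 1 and 1 for MV_PEEP against CON. Over all genes 967 and 1020 passed it in the former and 1065 and 1078 in the latter. Rows summed by protein gave 1 for MV against CON and 0 for MV_PEEP against MV. TMM-scaled FPKM left 4 of 15 members without overlap for MV against CON and 0 of 10 for MV_PEEP against CON. Counts scaled to the library total in place of FPKM, which do not correct for length, gave a large to small subunit ratio of 1.64, 1.57 and 1.59 in the CON, MV and MV_PEEP groups. Other causes were not tested. Libraries with the same replicate number had r from -0.284 to 0.364, and 2 of 9 were closest to their own number. With so few libraries, these values cannot tell whether libraries of the same number shared a batch. With the replicate block, 2, 0 and 0 members passed the unadjusted p, beside 723, 631 and 258 of all genes. The members' medians for MV against CON were then 0.54 and 0.48.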
